A study of Mus musculus with 12 samples.

Results

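The mitochondrial ribosomal protein genes are the nuclear genes whose symbols begin with Mrpl or Mrps followed by a number. They were chosen by that naming pattern alone, from probe sets that the platform annotation gives 1 gene symbol, and not by any measured value. The pattern found 76 of the 18193 genes on the array, represented by 156 of the 45101 probe sets. Each gene is described by its brightest probe set by mean over all 12 arrays.

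Mitochondria carry their own ribosome, which translates the few proteins encoded by mitochondrial DNA, all of them subunits of the respiratory chain and ATP synthase. The ribosomal RNAs of this mitoribosome come from mitochondrial DNA, whereas its proteins are encoded in the nucleus, made in the cytosol and imported. Mrps proteins were named for the small subunit, which holds the messenger RNA and the decoding site, and Mrpl proteins for the large subunit, which joins amino acids. Developing red cells depend on mitochondria for heme synthesis, and maturing red cells later lose these organelles.

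The study supplied GATA1, a zinc finger transcription factor needed for red cell and megakaryocyte maturation, to G1ME cells, a mouse megakaryocyte-erythroid progenitor line that lacks it. All groups are this 1 line, so all share the Gata1-negative background. The 4 groups of 3 arrays each are GATA1-transduced cells at 18 h, vector-transduced cells at 18 h, GATA1-transduced cells at 42 h and vector-transduced cells at 42 h. The vector was the MIGR1 retrovirus, which marks infected cells with green fluorescent protein (GFP), and RNA came from GFP-positive cells isolated by flow sorting after transduction. The arrays of a group are lettered A, B and C and are described as biological triplicates. The labels do not say which cultures or days the letters stand for, so p-values measure the spread between these samples. The comparisons ask how the genes differ when GATA1 is supplied, at each time, and what changes with time within each construct.

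Levels are deposited linear intensities with no unit of concentration. Changes are differences of mean log2(intensity + 16), where the added 16 damps noise in dim probe sets and understates the change of dim genes. A change is called where limma's two-sided test, fitted to all 10759 tested genes over the 12 arrays, gave a Benjamini-Hochberg adjusted p under 0.05. "Rose" and "fell" are used only for such calls. Array medians lay between 8.05 and 8.29. The single Gata1 probe set read 2311, 2257 and 2435 on the GATA1-labelled arrays at 18 h, against 2815, 2864 and 3329 on the vector-labelled arrays. At 42 h it read 2418, 1714 and 1999 on GATA1-labelled arrays, against 3088, 3053 and 3268 on vector-labelled ones. It was lower, not higher, on the arrays labelled GATA1, so it does not check the labels, and directions below follow the labels as given. Summed intensities of 5 erythroid marker genes ran from 15340 to 24018 on GATA1-labelled arrays at 42 h, against 290 to 378 on vector-labelled arrays. At 18 h the same sums were 2771 to 3758 on GATA1-labelled arrays and 247 to 515 on vector-labelled arrays.

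All 76 genes passed the filter on low values, which kept a gene when 3 or more of the 12 arrays read it above their own median. Their mean intensities ran from 253 to 13594, with a median of 1991, so none lay near the bottom of the scale. Levels of different genes are not compared, because probe sets differ in how brightly they read a given amount of RNA. The genes comprise 49 large-subunit proteins, 26 small-subunit proteins and Mrps36. Despite its name, Mrps36 is now known as a component of the 2-oxoglutarate dehydrogenase complex of the citric acid cycle, also called KGD4. Mrps30 and Mrps18a are counted with the large subunit, where structures of mammalian mitoribosomes place them.

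The promoters of the genes with the largest rises at 42 h, Mrpl55 and Mrps36, and of Mrpl16, the one gene that fell, are shown because these genes mark the ends of the range of change described below. The sequences come from RefSeq promoters of mouse build GRCm38.p6, cover 250 bases before to 50 bases after the annotated start, and are written in the direction of the gene. Capitals mark exact matches, on either strand, to the core letters GGGCGG bound by Sp and KLF factors or AGATAA bound by GATA factors. Mrpl55 lies at chr11:59202236-59202535 on the plus strand, Mrps36 at chr13:100744610-100744909 on the minus strand and Mrpl16 at chr19:11770165-11770464 on the plus strand.
Mrpl55: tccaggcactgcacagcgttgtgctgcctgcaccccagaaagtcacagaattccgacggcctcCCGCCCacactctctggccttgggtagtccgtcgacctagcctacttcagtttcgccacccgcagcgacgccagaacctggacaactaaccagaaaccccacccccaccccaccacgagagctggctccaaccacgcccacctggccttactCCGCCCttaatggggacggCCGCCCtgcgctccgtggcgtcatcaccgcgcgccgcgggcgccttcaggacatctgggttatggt
Mrps36: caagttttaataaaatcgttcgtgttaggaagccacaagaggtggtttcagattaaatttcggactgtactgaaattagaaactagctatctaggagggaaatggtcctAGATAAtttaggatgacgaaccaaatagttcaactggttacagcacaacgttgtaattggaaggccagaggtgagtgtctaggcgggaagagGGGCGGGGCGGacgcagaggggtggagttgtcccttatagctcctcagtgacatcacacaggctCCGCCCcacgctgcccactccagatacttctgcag
Mrpl16: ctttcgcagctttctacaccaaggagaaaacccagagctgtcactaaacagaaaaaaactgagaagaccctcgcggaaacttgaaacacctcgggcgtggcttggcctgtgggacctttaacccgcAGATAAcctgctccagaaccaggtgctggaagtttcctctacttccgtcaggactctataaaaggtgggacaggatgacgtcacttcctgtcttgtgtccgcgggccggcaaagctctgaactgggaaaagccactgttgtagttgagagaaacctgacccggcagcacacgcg
Positions count the first base of a match from the start, with -1 just before it and 1 the first transcribed base. The Mrpl55 promoter held 3 Sp and KLF matches, at -187, -35 and -16, and no GATA match. The Mrps36 promoter held a GATA match at -141 and Sp and KLF matches at -49, -44 and 16, of which the matches at -49 and -44 overlap each other. The Mrpl16 promoter held 1 GATA match, at -124. A match describes letters in this window and does not show that a factor binds there.

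At 42 h the median change of the mitochondrial ribosomal protein genes lay slightly above 0, but single arrays of the groups overlapped. As the median deviation from the 12-array mean, vector array C (0.08) lay above GATA1-labelled array A (0.05). Within letter C the median change was 0.03, with 43 of the 76 genes higher on the GATA1-labelled array. Of the 76 genes, 10 rose and 1 fell, while 10.3% of all tested genes rose and 10.6% fell. The median change was 0.10 over the 76 genes and 0.00 over all tested genes, with 57 of the 76 changes above 0 and 19 below. Changes ran from -0.23 for Mrpl16 to 0.69 for Mrpl55, with a median SE of 0.10. At an unadjusted limma p under 0.05, 22 of the 76 were higher and 3 lower, while 15.9% of all tested genes were higher and 15.8% lower. The share of adjusted rises was therefore near that of all genes, and the share of falls was below it. In bulk RNA, fewer cells of a type and less RNA per cell cannot be told apart.

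**Figure D1:**
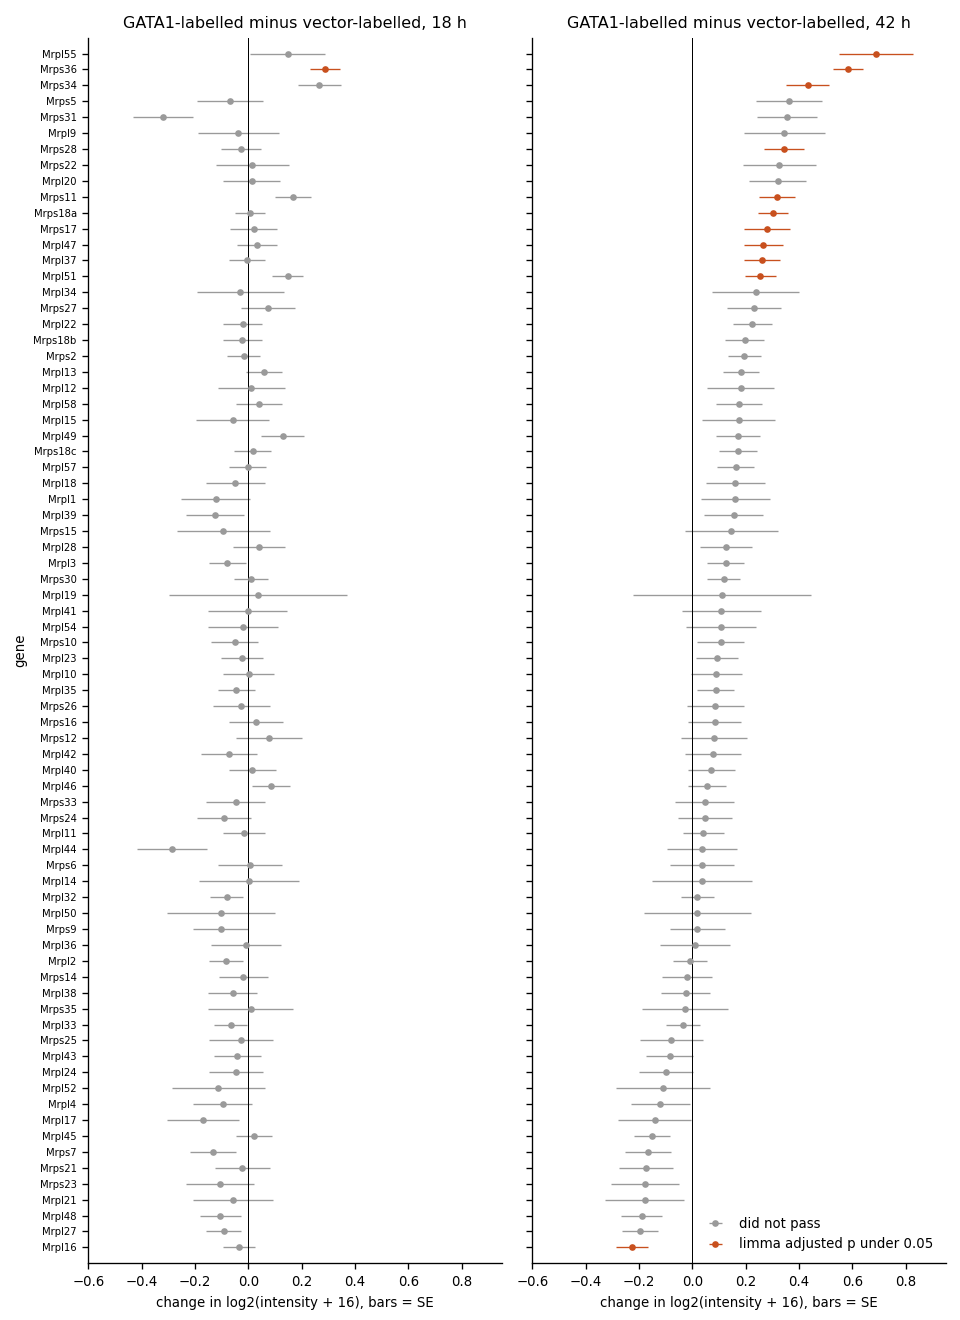
Change in log2(intensity + 16), GATA1-labelled minus vector-labelled arrays, for each of the 76 genes at 18 h (left) and 42 h (right), ordered by the change at 42 h; points are fitted changes, bars are the SE, and orange marks a limma adjusted p under 0.05. At 18 h only Mrps36 is marked, and at 42 h 10 genes are marked on the right and Mrpl16 on the left of 0.

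The letters were taken to pair the arrays at both times. Arrays of the same letter deviated together from their group means, with correlations of 0.25 or more at 42 h and 0.31 or more at 18 h. Arrays of different letters reached 0.39 at 42 h and 0.08 at 18 h, so the pairing is less clear at 42 h. Of the 6 arrays of a time, 4 at 42 h and 6 at 18 h correlated best with the array of their own letter in the other construct. With the letter as a block in the fit, 15 genes rose and 3 fell at 42 h, against 13.9% and 14.5% of all tested genes. The fit spanned both times and gave each letter the same shift at both, so these calls also assume that letters match between times. GATA1 42 h array B correlated at 0.05 with GATA1 18 h array B and at -0.11 with vector 18 h array B. For letters A and C the same correlations ran from 0.44 to 0.61. The block calls at 42 h therefore rest partly on a match not shown for letter B. The block kept 10 of the 11 calls. It dropped Mrps17, whose adjusted p became 0.0523 by limma, and added Mrpl9, Mrpl20, Mrpl22, Mrps5, Mrps22 and Mrps31 among the rises and Mrpl21 and Mrpl45 among the falls. Without vector 42 h array C the count of rises was 18. The fall was lost without vector 42 h array A or GATA1 42 h array C. It was also lost, as the single-gene test shows, without vector 42 h array C or GATA1 42 h array B, where other genes took its place in the count.

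Array values place 17 genes entirely above and 3 entirely below on GATA1-labelled arrays at 42 h, with no overlap between the groups. Over all tested genes 16.8% lay entirely above and 16.6% entirely below. The 3 lying below were Mrpl16, which fell, and Mrpl4 and Mrpl27, which did not pass the test with changes of -0.12 and -0.20. The 17 lying above comprise the 10 that rose together with Mrpl9, Mrpl13, Mrpl22, Mrpl58, Mrps2, Mrps18c and Mrps31.

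Among large-subunit genes, 5 of 49 (10.2%) rose and 1 fell at 42 h, with a median change of 0.09. Over all tested genes 10.3% rose and 10.6% fell. Mrpl55, counted among the large-subunit proteins with counterparts in bacteria, read 324, 376 and 375 on GATA1-labelled arrays A, B and C, against 207, 181 and 266 on vector-labelled arrays. Every GATA1-labelled array lay above every vector-labelled array. The change was 0.69 ± 0.14 (SE), a 1.61-fold difference, with a limma adjusted p of 0.00665. At 18 h Mrpl55 read 221, 229.7 and 235 on GATA1-labelled arrays and 246, 193 and 180.2 on vector-labelled arrays, so the groups overlapped there. An opposite-strand gene, 2610507I01Rik, starts 55 bases from Mrpl55 and was not tested, its brightest probe set being too dim.

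Mrpl51, a large-subunit protein found only in mitochondrial ribosomes, read 14936, 15129.7 and 15342 on GATA1-labelled arrays at 42 h, against 12586, 11830.1 and 13693 on vector-labelled arrays. The groups did not overlap, and the change was 0.26 ± 0.06 (SE, limma adjusted p = 0.0116). Its second probe set, the only second probe set tested among the 11 called genes, gave 0.21 without passing the test (limma adjusted p = 0.285).

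Mrpl37, another protein specific to mitochondria, read 695, 742 and 765 on GATA1-labelled arrays at 42 h, against 604, 577 and 646 on vector-labelled arrays. Mrpl47, the counterpart of the universal ribosomal protein L29, read 2543, 2437 and 2294 on GATA1-labelled arrays, against 2036, 1859.7 and 2146 on vector-labelled arrays. The groups did not overlap for either gene. Mrpl37 rose by 0.26 ± 0.07 (SE, limma adjusted p = 0.0219) and Mrpl47 by 0.27 ± 0.07 (SE, limma adjusted p = 0.0315). Each call was lost when any of 4 single arrays was left out, vector 42 h A and B and GATA1 42 h B for both, with GATA1 42 h C for Mrpl37 and GATA1 42 h A for Mrpl47. The highest adjusted p then was 0.0783 for Mrpl37 and 0.107 for Mrpl47.

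Mrps18a, a mammalian relative of bacterial S18 that sits in the large subunit, read 2017, 1908 and 1854 on GATA1-labelled arrays at 42 h, against 1620.2, 1441 and 1618 on vector-labelled arrays. All 3 GATA1-labelled arrays were higher, and the change was 0.30 ± 0.06 (SE, limma adjusted p = 0.00458). Its relatives Mrps18b and Mrps18c, small-subunit proteins of the same family, did not pass the test. Mrps18b read 1850.3, 1953 and 1669 on GATA1-labelled arrays, against 1660.0, 1438 and 1673 on vector-labelled arrays, which overlapped, with a change of 0.20 ± 0.07 (SE, limma adjusted p = 0.0919). Mrps18c read 3073, 3124 and 3042 on GATA1-labelled arrays, against 2742, 2487 and 2993 on vector-labelled arrays, which did not overlap, with a change of 0.17 ± 0.07 (SE, limma adjusted p = 0.130). Whether the changes of these paralogs differ from each other was not tested.

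Mrpl16 was the only one of the 76 genes that fell. This universal large-subunit protein, the counterpart of bacterial L16, read 2629, 2406 and 2386 on GATA1-labelled arrays at 42 h, against 3071, 2724 and 2902 on vector-labelled arrays. The groups did not overlap, and in each letter the GATA1-labelled array was lower. The change was -0.23 ± 0.06 (SE, limma adjusted p = 0.0241). At 18 h it read 2761, 2903 and 2703 on GATA1-labelled arrays, against 2868, 2989 and 2721 on vector-labelled arrays, a change of -0.04 that did not pass.

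**Figure D2:**
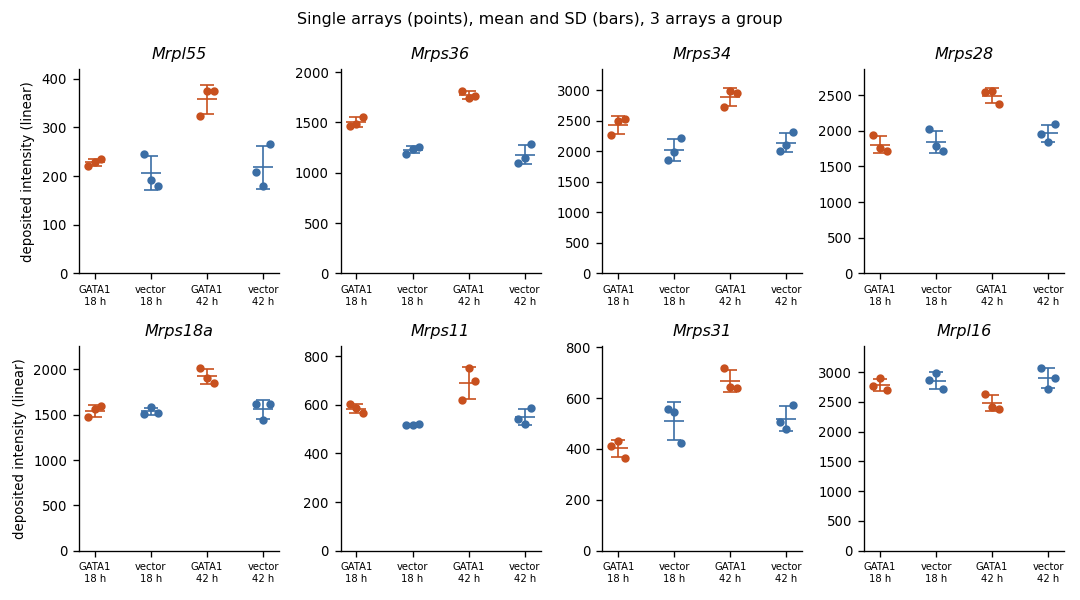
Deposited linear intensity of 8 genes on each array, with points for arrays A, B and C from left to right, and the mean and SD of the 3 arrays of a group; orange is GATA1-labelled and blue vector-labelled, and every axis starts at 0. At 42 h the GATA1-labelled arrays lie above the vector-labelled ones without overlap in 7 panels and below them for Mrpl16.

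Among small-subunit genes, 4 of 26 (15.4%) rose and 0 fell at 42 h, with a median change of 0.10. Over all tested genes 10.3% rose and 10.6% fell. At an unadjusted limma p under 0.05, 11 of the 26 small-subunit genes were higher and 0 lower, and 10 of the 49 large-subunit genes were higher and 3 lower. The shares over all tested genes were 15.9% higher and 15.8% lower. Whether the subunits differ from each other was not tested. Mrps34, a mitochondria-specific protein needed for stability of the small subunit, read 2725, 2989 and 2951 on GATA1-labelled arrays, against 1998, 2107 and 2309 on vector-labelled arrays. The groups were clearly apart, and the change was 0.43 ± 0.08 (SE, 1.35-fold, limma adjusted p = 0.00401). The separation was already present at 18 h, when GATA1-labelled arrays read 2261, 2492 and 2529.6 and vector-labelled arrays 1851, 1993 and 2212. That change of 0.27 ± 0.08 (SE) did not pass without the block (limma adjusted p = 0.196) and passed with it (limma adjusted p = 0.0156).

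Mrps28, a protein of the small subunit, read 2539, 2561 and 2378 on GATA1-labelled arrays at 42 h, against 1955, 1839 and 2090.4 on vector-labelled arrays. The groups did not overlap, and the change was 0.34 ± 0.07 (SE, limma adjusted p = 0.00965). Mrps11, the counterpart of the universal protein S11, read 619, 752 and 700.2 on GATA1-labelled arrays, against 543, 520.1 and 586 on vector-labelled arrays. Here too the groups were apart, with a change of 0.32 ± 0.07 (SE, limma adjusted p = 0.00916). Mrps11 also stood apart at 18 h, with 603, 587 and 565 on GATA1-labelled arrays and 518.9, 518.0 and 520.0 on vector-labelled arrays, yet the change of 0.17 did not pass.

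Mrps17, the counterpart of the universal protein S17, read 2753, 2549 and 2412 on GATA1-labelled arrays at 42 h, against 2220.1, 1875 and 2265 on vector-labelled arrays. The change was 0.28 ± 0.09 (SE, limma adjusted p = 0.0476). It was the weakest of the 11 calls, since leaving out any of 10 of the 12 arrays ended it. The 2 arrays that could be left out were vector 18 h B and vector 42 h C, and the highest adjusted p without 1 array was 0.144.

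Mrps36, the 2-oxoglutarate dehydrogenase component, had the smallest adjusted p of the 76 genes. It read 1815, 1742 and 1760.1 on GATA1-labelled arrays at 42 h, against 1099.9, 1151 and 1287 on vector-labelled arrays. The groups lay far apart, with a change of 0.58 ± 0.06 (SE, limma adjusted p = 8.26e-05). It was also the only gene of the set called at 18 h, when GATA1-labelled arrays read 1461, 1489 and 1557 and vector-labelled arrays 1187, 1240.4 and 1255. That change was 0.29 ± 0.06 (SE, 1.22-fold, limma adjusted p = 0.0380). The call at 18 h was lost when any of 10 arrays was left out, all but vector 42 h A and C, with adjusted p up to 0.147. The call at 42 h held without each of the 12 arrays.

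Sorting the genes by how widely their proteins are conserved gave like values at 42 h. Over all tested genes 10.3% rose and 10.6% fell. Of 26 genes with counterparts in all ribosomes, 3 rose and 1 fell, with a median of 0.10. Of 19 with counterparts in bacteria only, 2 rose and 0 fell, with a median of 0.09. Of 30 specific to mitochondria, 4 rose and 0 fell, with a median of 0.10.

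At 18 h the median change of the genes lay near that of all tested genes. Mrps36 was the 1 rise, 0 genes fell, and 1.11% of all tested genes rose and 0.744% fell. At an unadjusted limma p under 0.05, 4 genes were higher and 1 lower, beside 4.32% and 5.49% of all tested genes. The median change was -0.02, with 28 changes above 0 and 48 below, beside -0.01 over all tested genes. Leaving out single arrays moved this median between -0.04 and 0.02. With the letter as a block Mrps34 joined Mrps36, against 1.78% of all tested genes higher and 1.55% lower.

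Without overlap at 18 h, 4 genes lay above, Mrps11, Mrps34, Mrps36 and Mrpl51, and 2 below, Mrpl44 and Mrps7. The shares over all tested genes were 5.47% above and 9.93% below. All 4 genes that lay above also rose at 42 h. Mrpl44, a large-subunit protein related to ribonuclease III, read 1061, 1141 and 1073 on GATA1-labelled arrays, against 1228, 1452 and 1331 on vector-labelled arrays. Its change at 18 h was -0.29 ± 0.13 (SE), did not pass, and was not seen at 42 h, when the change was 0.04.

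The 18 h and 42 h changes come from separate arrays, and across the 76 genes their Pearson correlation was 0.48 and their Spearman correlation 0.47. As a description across genes, which are not independent replicates, 43 of the 76 had the same sign at both times. The SD of the changes across genes was 0.09 at 18 h and 0.18 at 42 h, beside a median SE of 0.10 at each time.

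The difference between the effects, 42 h minus 18 h, passed the test for 1 gene, against 2.29% of all tested genes higher and 2.37% lower. That gene was Mrps31, a small-subunit protein specific to mitochondria. At 18 h it read 412, 429.5 and 365 on GATA1-labelled arrays and 557, 545 and 422 on vector-labelled arrays, and at 42 h it read 719, 645 and 639 on GATA1-labelled arrays and 505, 479 and 574 on vector-labelled arrays. Its values on GATA1-labelled arrays thus lay mostly below those of the vector at 18 h and above them at 42 h. The changes were -0.32 at 18 h and 0.35 at 42 h, neither past the threshold without the block, and their difference was 0.67 ± 0.16 (SE, limma adjusted p = 0.0464). The call was lost without any of 10 arrays, all but vector 18 h C and vector 42 h C, with adjusted p up to 0.111. The median difference of effects was 0.12 over the 76 genes and 0.01 over all tested genes.

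**Figure D3:**
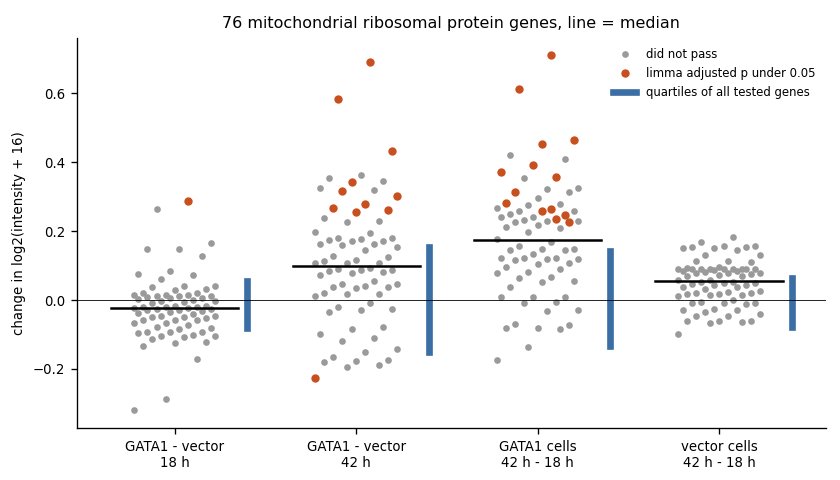
Changes in log2(intensity + 16) of the 76 genes in 4 comparisons; each point is a gene, spread sideways for legibility, orange marks a limma adjusted p under 0.05, the black line is the median of the 76 genes and the blue bar spans the quartiles of all tested genes. The medians are -0.02, 0.10, 0.17 and 0.06 from left to right, and the last comparison has no marked gene.

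Within GATA1-labelled cells, 42 h against 18 h, 14 genes rose and 0 fell, where 6.72% of all tested genes rose and 7.91% fell. At an unadjusted limma p under 0.05, 31 were higher and 1 lower, where 13.8% of all tested genes were higher and 13.4% lower. The median change was 0.17, beside 0.00 over all tested genes. Large-subunit genes gave 8 rises of 49 with a median of 0.15, and small-subunit genes 5 of 26 with a median of 0.21. Mrps36 was the remaining rise. The count was 7 without GATA1 18 h array A, 7 without GATA1 18 h array B, 8 without GATA1 18 h array C, 6 without GATA1 42 h array B and 8 without GATA1 42 h array C. Leaving out GATA1 42 h array A also ended calls, those of Mrpl3, Mrpl22, Mrpl35, Mrps2, Mrps30 and Mrps36.

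Mrps31 had the largest of these changes, 0.71 ± 0.11 (SE, 1.64-fold, limma adjusted p = 0.00294), from the values given above, and its GATA1-labelled arrays at the 2 times did not overlap. Mrpl55 followed with 0.61 ± 0.14 (SE, limma adjusted p = 0.0174). Mrps28 read 2539, 2561 and 2378 at 42 h, against 1937, 1754 and 1721 at 18 h, a change of 0.46 ± 0.07 (SE, limma adjusted p = 0.00317). Mrps5, the counterpart of the universal protein S5, read 699, 839 and 1000.5 at 42 h, against 551, 639 and 637 at 18 h, without overlap. Its change was 0.45 ± 0.12 (SE, limma adjusted p = 0.0385), and the call ended without any of 9 arrays. Mrpl47 read 2543, 2437 and 2294 at 42 h, against 1716, 2024 and 1799 at 18 h, a change of 0.39 ± 0.07 (SE, limma adjusted p = 0.00740).

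The other rises of this comparison were Mrps18b (0.37), Mrpl37 (0.36), Mrps18a (0.32), Mrpl3 (0.28), Mrpl22 (0.26), Mrps30 (0.26), Mrpl35 (0.25), Mrps36 (0.24) and Mrps2 (0.23). Both sets of rises use the GATA1-labelled arrays of 42 h, so they are not separate evidence. They share 6 genes, Mrpl37, Mrpl47, Mrpl55, Mrps18a, Mrps28 and Mrps36, which are 60% of the 10 and 42.9% of the 14.

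Within vector-labelled cells 0 of the 76 genes were called in either direction by limma, and 0% of all tested genes rose and 0.0186% fell. At an unadjusted p under 0.05 there were 1 higher, Mrps30, and 0 lower, beside 2.17% and 4.11% of all tested genes. Mrps30, a large-subunit protein despite its name, read 1968, 1662 and 1737 on vector-labelled arrays at 42 h, against 1504, 1689 and 1626 at 18 h, which overlapped. The median change with time was 0.06, beside -0.01 over all tested genes, with 58 of 76 above 0. The median over the genes was thus above that of all genes in both constructs, 0.17 in GATA1-labelled cells and 0.06 in vector-labelled cells.

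The level of the whole group on each array was taken as the median, over the 76 genes, of the deviation from the gene's mean over the 12 arrays. On GATA1-labelled arrays A, B and C of 18 h it was -0.14, -0.02 and -0.03, and on vector-labelled arrays of 18 h -0.07, 0.00 and -0.09. On GATA1-labelled arrays of 42 h it was 0.05, 0.15 and 0.13, and on vector-labelled arrays of 42 h -0.03, -0.06 and 0.08. Vector 42 h array C lay above GATA1 42 h array A, so the groups overlapped at 42 h as they did at 18 h. Within letters, the median change at 42 h was 0.12 in A, 0.22 in B and 0.03 in C, with 47, 58 and 43 of the 76 genes higher on the GATA1-labelled array.

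**Figure D4:**
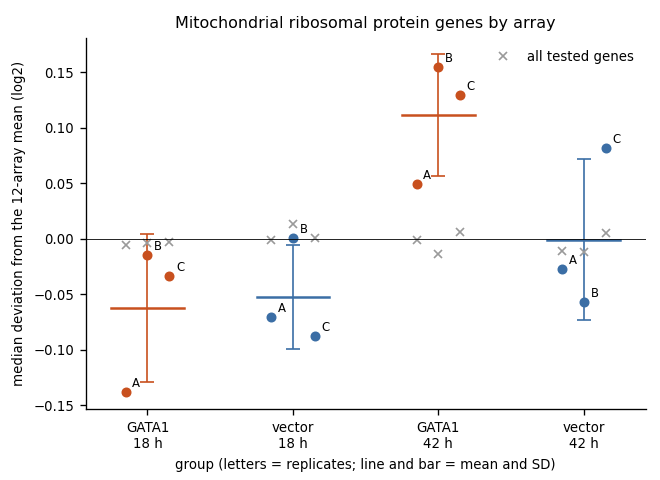
Median deviation, in log2, of the 76 genes from their means over the 12 arrays, for each array (dots with replicate letters), with the group mean and SD; grey crosses give the same median over all tested genes. The GATA1-labelled arrays of 42 h lie between 0.05 and 0.15, and vector 42 h array C, at 0.08, lies among them.

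GATA1 42 h array A stood apart in control probe sets. Its difference between 3' and 5' beta-actin probe sets was 0.80 in log2, where the other 11 arrays gave 0.38 to 0.55, and its 18S ribosomal RNA control was 12.4, where the others gave 4.79 to 10.6. Without the 4 arrays lettered A, 9 of the 76 genes rose and 0 fell at 42 h, and the share of all tested genes in that fit is not given here. Markers of other cell types also moved with the groups at 42 h. The sum of 5 megakaryocyte and platelet markers was 26439 to 32341 on GATA1-labelled arrays, against 15999 to 16440 on vector-labelled arrays. The sum of 4 progenitor markers was 3511 to 4343 on GATA1-labelled arrays and 7652 to 9312 on vector-labelled arrays. That of 4 mast cell markers was 46.7 to 77.7 on GATA1-labelled arrays and 1533 to 2603 on vector-labelled arrays. Ms4a2, Mcpt8 and Cma1 of the mast cell list and Cd34 of the progenitor list were below the array median on every array. The sum of 4 neutrophil and macrophage markers was 37.0 to 41.4 on GATA1-labelled arrays and 122 to 211 on vector-labelled arrays, with Elane below the median on every array. All 4 lymphoid markers were below the median on every array. The part of these cell states in the changes of the 76 genes was not tested.

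Of the 76 genes, 42 have several probe sets, and in 33 of them the second brightest was tested. In a limma fit of second probe sets alone, none of those 33 passed the test at 42 h. In a limma fit of all probe sets, that of Mrpl28 did pass, with a change of 0.27 (adjusted p = 0.0472, against 0.0607 in the former fit). Dimmer probe sets of Mrpl15, Mrpl35 and Mrps5 also passed at 42 h (limma adjusted p = 0.0496, 0.0366 and 0.0213). The same fit ended the calls of Mrps36 at 18 h (0.0556) and Mrps17 at 42 h (0.0606). It also ended that of Mrps31 for the difference of effects (0.0630). Over time in GATA1-labelled cells it ended those of Mrpl22, Mrpl35 and Mrps2 (0.0537, 0.0561 and 0.0525). The direction of the second brightest at 42 h was opposite in 8 of the 33, Mrpl21, Mrpl38, Mrpl44, Mrpl50, Mrps9, Mrps10, Mrps14 and Mrps24. In none of these 8 did either probe set pass. By the platform's suffixes, 45 of the 76 brightest probe sets were of the _at kind, 24 _a_at, 6 _s_at and 1 _x_at, where _s_at and _x_at probe sets can read related transcripts too. Mrpl37 is read by an _s_at probe set.

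Other genes of mitochondrial translation moved unevenly at 42 h, when 10.3% of all tested genes rose and 10.6% fell. The share that rose was 34.8% of the assembly factors and 12.5% of the aminoacyl-tRNA synthetases. It was 7.14% of the translation factors and 5% of the genes that maintain mitochondrial DNA and its transcripts. Of 4 mitoribosomal proteins without an Mrp name, 1 rose, Dap3, a small-subunit GTP-binding protein, with 2106 ± 229 on GATA1-labelled arrays and 1635 ± 153 on vector-labelled arrays (SD, n = 3 each) and a change of 0.36 by limma (adjusted p = 0.0146). Of 23 assembly factors, 8 rose and 1 fell, with a median of 0.14. Gtpbp10, a GTPase that helps build the large subunit, read 898 ± 113 on GATA1-labelled arrays and 572 ± 123 on vector-labelled arrays (SD, n = 3 each), a change of 0.65 by limma (adjusted p = 0.0187). Mrm1, which methylates mitochondrial ribosomal RNA, rose by 0.52 (limma adjusted p = 0.0285). Ngrn, which associates with the mitochondrial 16S ribosomal RNA, fell with a change of -0.19 (limma adjusted p = 0.0219).

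Of 14 translation factors 1 rose, with a median of 0.00. This was Gfm1, the elongation factor that moves the ribosome along the message, at 2386 ± 80 on GATA1-labelled arrays and 1865 ± 78 on vector-labelled arrays (SD, n = 3 each), a change of 0.35 by limma (adjusted p = 0.000882). Of 16 mitochondrial aminoacyl-tRNA synthetases, which charge tRNAs with amino acids, 2 rose and 1 fell, with a median of 0.11. Ears2, for glutamate, read 149 ± 25 on GATA1-labelled arrays and 49.4 ± 7.7 on vector-labelled arrays (SD, n = 3 each), a change of 1.33 by limma (adjusted p = 0.000112). Mars2, for methionine, rose by 0.63 (limma adjusted p = 0.00555). Fars2, for phenylalanine, fell with a change of -0.23 (limma adjusted p = 0.0210). Of 20 genes that maintain mitochondrial DNA and its transcripts 1 rose, Pnpt1, an RNA-degrading phosphorylase, by 0.30 (limma adjusted p = 0.0256), and the median was 0.18.

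Of 14 regulators linked to mitochondrial genes 1 rose at 42 h (7.14%, beside 10.3% of all tested genes), with a median of 0.13. This was Ddit3, a stress-response transcription factor also called CHOP, at 236 ± 17 on GATA1-labelled arrays and 101 ± 4.98 on vector-labelled arrays (SD, n = 3 each), a change of 1.11. Ddit3 was also the only gene of these 8 lists called at 18 h, with a change of 0.68 by limma (adjusted p = 0.00835). Of 74 tested subunits of the respiratory chain and ATP synthase, 6 rose (8.11%) and 1 fell (1.35%) at 42 h, with a median of 0.03. Ndufb1 and Ndufb6, both of complex I, rose by 0.71 and 0.40 (limma adjusted p = 0.00510 and 0.00415), and Atp5e, of ATP synthase, fell with a change of -0.35 (limma adjusted p = 0.0171). Of 42 tested cytosolic ribosomal proteins, 1 rose and 1 fell, with a median of -0.05 and 35 changes below 0. Rps25 rose by 0.44 (limma adjusted p = 0.0320) and Rps6 fell with a change of -0.28 (limma adjusted p = 0.0193).

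**Figure D5:**
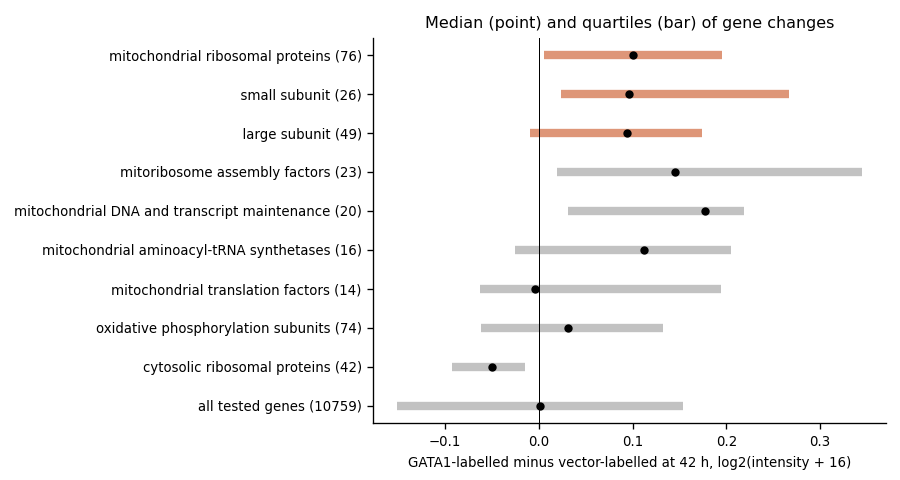
Median (point) and quartiles (bar) of the changes in log2(intensity + 16), GATA1-labelled minus vector-labelled arrays at 42 h, for the mitochondrial ribosomal protein genes and their subunits (orange) and for related gene lists and all tested genes (grey), with the number of tested genes in brackets. The medians of the mitochondrial ribosomal proteins and the assembly factors lie at 0.10 and 0.14, and that of the cytosolic ribosomal proteins at -0.05.

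Promoters of 67 of the 76 genes matched the RefSeq table. Of these, 24 (35.8%) held the letters CCGGAAG, bound by ETS factors, on either strand, against 19.4% of the promoters of all tested genes. The YY1 letters AAGATGGC stood in 12 (17.9%), against 5.18%, and the core letters of nuclear respiratory factor 1, GCATGCG, in 8 (11.9%), against 6.79%. The GATA letters AGATAA stood in 11 (16.4%), against 6.66%, the Sp and KLF letters GGGCGG in 34 (50.7%), against 63.6%, and the E box CACGTG in 5 (7.46%), against 10.4%. Over all 27025 promoters of the table the shares were 9.12% for ETS, 2.88% for YY1, 3.64% for nuclear respiratory factor 1, 11.4% for GATA, 35.9% for Sp and KLF and 7.24% for the E box. These are descriptions of letters, with no test.

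Of the 11 genes with the GATA letters 3 were called at 42 h, Mrps17 and Mrps36, which rose, and Mrpl16, which fell. Of the 56 without, 6 were called, while 10.3% of all tested genes rose and 10.6% fell. For the other letters, called genes with and without them were 3 of 12 and 6 of 55 for YY1 and 2 of 24 and 7 of 43 for ETS. They were 6 of 34 and 3 of 33 for Sp and KLF, and 1 of 5 and 8 of 62 for the E box. For nuclear respiratory factor 1 they were 0 of 8 and 9 of 59. The median change at 42 h was 0.01 with the GATA letters and 0.09 without. It was 0.11 with the ETS letters and 0.09 without, and 0.08 with the YY1 letters and 0.09 without. It was 0.17 in the 5 genes with the E box and 0.09 in the 62 without, 0.12 with the letters of nuclear respiratory factor 1 and 0.09 without, and 0.09 with the Sp and KLF letters and 0.11 without. The following windows, chosen after values were seen, show the YY1 or ETS letters in called genes. Each has 30 bases in the direction of the gene, with the letters in capitals. They lie at chr4:107066822-107066851 for Mrpl37 on the minus strand and, on the plus strand, at chr7:78783013-78783042 for Mrps11, chr17:46111004-46111033 and chr17:46110967-46110996 for Mrps18a and chr6:125192099-125192128 for Mrpl51.
Mrpl37, YY1 at 27: ctgcacgggcaAAGATGGCggcgtccaggt
Mrps11, YY1 on the opposite strand at -107: ctacgggcgccGCCATCTTtctgtcttccc
Mrps18a, YY1 at 12: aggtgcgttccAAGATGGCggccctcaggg
Mrps18a, ETS at -26: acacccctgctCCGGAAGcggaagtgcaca
Mrpl51, ETS at -90: caggggctaaaCCGGAAGtatttgactgga

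Many of the genes start close to a gene on the opposite strand. Of the 67, 25 (37.3%) had such a start within 1000 bases, against 19.2% of the 8824 tested genes with a promoter. Among the 23 tested neighbours 2 rose and 2 fell at 42 h, with a median of 0.02, beside 10.3% and 10.6% of all tested genes. These neighbours include Mrps11 and Mrpl46, each the other's neighbour, and Mrps11 is 1 of the 2 rises. Mrps11 and Mrpl46, a large-subunit gene, start 42 bases apart; Mrps11 rose by 0.32 and Mrpl46 had a change of 0.05, which did not pass. Helq, a DNA helicase gene beside Mrps18c, rose by 0.58, and Klc4, a kinesin light chain gene beside Mrpl2, fell with a change of -0.55. Pnpla7, a lipase gene beside Mrpl41, fell with a change of -0.88. The called genes Mrpl37, Mrpl47 and Mrpl51 had neighbours that did not pass, Cyb5rl at -0.18, Ndufb5, a subunit of complex I, at 0.00 and Ncapd2, a condensin subunit, at -0.05.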

How the data were processed

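RNA of 12 samples was hybridised to Affymetrix arrays. The deposited values are linear intensities, 1 per probe set and array, and GCRMA and MAS5 appear in the submitters' processing notes with no role, so the authors' background correction and scaling are not given in the sources used here. Probe sets were named through a table of the platform annotation, with 34945 given 1 symbol and 932 several. The IDs of all 76 genes matched a RefSeq table of GRCm38.p6. The number of arrays limits the precision.

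Values were analysed as log2(intensity + 16) without further normalization. The brightest probe set stood for a gene, and a gene needed an intensity above the array median on 3 or more of 12 arrays, which left 10759 genes. R 4.3.3 with limma 3.58.1 (lmFit, eBayes) fitted all 12 arrays in 4 groups, with two-sided tests adjusted by Benjamini-Hochberg over the genes tested. The procedure was tested on simulated data with independent noise for each array, which leaves out the shared deviation of same-lettered arrays.

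Deviations of same-lettered arrays correlated at 0.31 to 0.66 between the constructs at 18 h, 0.25 to 0.60 at 42 h and 0.36 to 0.54 between times in vector-labelled cells, so the letters were taken to pair these arrays, from the data and not from a stated design. Between times in GATA1-labelled cells the lowest was 0.05, under the 0.1 required. Between vector-labelled arrays of 18 h and GATA1-labelled arrays of 42 h the lowest was -0.11, also under it. The block spanned both times, so its calls at 18 h and at 42 h also assume these pairings, which are not shown.

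The genes, the lists and the alternatives were chosen with earlier results of these data known. Genes were named by rule: all calls at 18 h, up to 8 rises and 8 falls at 42 h, 5 per direction elsewhere, genes whose second probe set disagrees, the Mrps18 paralogs and up to 2 rises and 2 falls per list. The remaining called genes and opposite-strand neighbours named in the text were chosen after their values were seen. Alternatives covered the pseudocount, filter, normalization, probe set, array weights, variance model, replicate block, arrays compared and single arrays left out.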

Additional observations from a re-analysis of the deposited data

Results flagged for a closer look

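For 5 genes the GATA1 effect at 42 h differed from that at 18 h by the limma interaction test with adjusted p under 0.05, among the 76 mitochondrial ribosomal protein genes and the related lists. They were 1 of the 76, 2 of 16 aminoacyl-tRNA synthetases, 1 of 14 translation factors and 1 of 74 subunits of the respiratory chain and ATP synthase. The other lists held none. Over all tested genes 2.29% were called higher and 2.37% lower. Mrps31 differed by 0.67 (adjusted p = 0.0464), with -0.32 at 18 h and 0.35 at 42 h. Ears2, the mitochondrial glutamyl-tRNA synthetase, differed by 0.97 (adjusted p = 0.0206), with 0.35 at 18 h and 1.33 at 42 h. Mars2, the mitochondrial methionyl-tRNA synthetase, differed by 0.72 (adjusted p = 0.0496), with -0.09 at 18 h and 0.63 at 42 h. Ndufb6 differed by 0.46 (adjusted p = 0.0378), with -0.07 at 18 h and 0.40 at 42 h. Gfm1, the elongation factor, differed by 0.31 (adjusted p = 0.0398), with 0.04 at 18 h and 0.35 at 42 h. Groups of 3 arrays were not tested for outlying samples.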

How the results depend on the processing

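The median change of the 76 genes stayed above 0 at 42 h, between 0.08 and 0.14 when single arrays were left out. The count at 18 h, 1 rise, was 0 with a pseudocount of 1, without the low-value filter, with a filter at 100, with only the arrays compared, with the second brightest probe set, without the 4 arrays lettered A and with a trended robust variance, 2 with the replicate block, and 0 to 1 without single arrays. At 42 h the 10 rises were 6 when other groups were left out of the fit, 18 with array weights, 5 without _x_at, _s_at or _a_at probe sets, 15 with the replicate block, 0 with second probe sets (33 genes) and 7 to 18 without single arrays. The 1 fall was 0 with the filter at 100, only the arrays compared, second probe sets or no A arrays, 3 with the replicate block and 0 to 1 without single arrays. The difference of effects, 1 call, gave 0 with a pseudocount of 64, no filter, second probe sets, the mean of all probe sets, no A arrays or the trended robust variance, 3 with array weights, 2 with the replicate block (adding Mrps36) and 0 to 2 without single arrays. In GATA1-labelled cells over time the 14 rises were 9 with the filter at 100, 31 with array weights (and 1 fall), 26 with the replicate block, 8 without A arrays, 1 with second probe sets (median 0.087) and 6 to 14 without single arrays. The letters are not shown to pair those arrays, whose lowest same-letter correlation was 0.05 and of which 4 of 6 correlated best with their own letter. In vector-labelled cells the count was 0 in both directions throughout. With the block, 10.1% of all tested genes rose and 11.5% fell over time in GATA1-labelled cells. For the difference of effects the block gave 3.74% higher and 4.13% lower. Counts under settings other than the main fit and the block are given, here and above, without the share of all tested genes. For the causes of these moves, no test was made. Of 672 repeats of single-gene calls, 506 held, 166 missed the threshold and 0 turned in direction. The calls of Mrpl55, Mrps18a, Mrps28, Mrps34 and Mrps36 at 42 h and of Mrpl37, Mrps28 and Mrps31 over time held in every alternative run that included the gene. All of these genes but Mrps31 have a single probe set. The alternatives of the probe set therefore left their values unchanged or left them out, and do not check these calls.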
